A study of Mus musculus with 8 samples.

Results

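The 10 genes described here carry glucose into the cell and convert it to lactate: the glucose carrier *Slc2a1* and the glycolytic enzymes *Hk2*, *Pfkp*, *Pfkl*, *Aldoa*, *Aldoc*, *Pgk1*, *Eno1*, *Pkm* (in the table under its older symbol Pkm2) and *Ldha*. They were found by row name in the expression table (SLC2A1, HK2, PFKP, PFKL, ALDOA, ALDOC, PGK1, ENO1, PKM2 and LDHA), which held a row for 9 of them among its 18132 rows, and *Hk2* was not analysed here. All 9 rows passed the filter on low values, a mean log2 level of at least 3, the background level of the methods, in 1 or more groups, as did 12691 rows in all. Primary mouse embryonic fibroblasts (MEFs) came from C57BL/6J embryos of day 13.5 postcoitum, wild type (WT) or *Btg1*-/-. Cells of both genotypes were either left untreated, in DMEM with Glutamax and 10% heat-inactivated serum, or starved of glutamine for 16 hours, which gave 4 groups of 2 arrays. The glutamine-free medium was made with dialyzed serum, so that the change of serum and the loss of glutamine cannot be told apart. The labels give the untreated cells as 0 hours without glutamine. No source used here describes a control kept for 16 hours in fresh medium, so time in culture and the change of medium cannot be told apart from it either. RNA was measured on Illumina bead arrays with 1 value per gene and array on a log2 scale, on which a step of 1 is a doubling. Each array reads a bulk culture, in which fewer cells of a type and less RNA per cell cannot be told apart.

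Glycolysis splits glucose into pyruvate and yields ATP without oxygen, and in cultured fibroblasts much of the pyruvate leaves the cell as lactate. The facilitative carrier GLUT1, the product of *Slc2a1*, brings glucose in, hexokinase traps it as glucose 6-phosphate, and phosphofructokinase makes the committing step. Aldolase then splits the sugar, phosphoglycerate kinase and pyruvate kinase make ATP, enolase acts between them, and lactate dehydrogenase regenerates the NAD+ that keeps the pathway running. Many of these genes are textbook targets of the hypoxia-inducible factor HIF-1 and of MYC. Glutamine is the other main carbon source of cultured cells and enters the tricarboxylic acid (TCA) cycle.

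The arrays had medians between 3.78 and 3.81, and replicates of a group correlated across the tested rows with r of 0.981 to 0.987. *Btg1* itself, an adaptor protein of the BTG/TOB family, measured 11.17 and 11.23 on the untreated WT arrays and 9.36 and 9.16 on the untreated *Btg1*-/- arrays, and no source used here places its probe relative to the deletion. The 11 measured fibroblast markers were all at or above 3 on every array. After starvation the difference was below 0 for 10 of them in WT cells (median -1.25) and for 11 in *Btg1*-/- cells (median -0.62). Limma called 9 of them as lower in WT and 4 in *Btg1*-/- cells, beside 11.6% and 7.24% of all tested rows. Their summed linear level was 47990 and 49807 in untreated and 27514 and 31943 in starved WT cells, and 54096 and 55626 in untreated and 40140 and 44349 in starved *Btg1*-/- cells. All 11 tested mitosis genes were called as lower in both genotypes, with medians of -1.96 and -1.83. These shifts moved with each response described here, and their part in it was not tested. *Eif2s3y*, a Y-linked gene, measured 9.81 and 9.49 on the arrays of WT replicate 2 and between 1.94 and 3.25 on the others, so the WT replicates did not share a single embryo and the number marked the same kind of culture in both conditions. No *Btg1*-/- array showed this signal, so embryo sex was not balanced between the genotypes. Its part in the differences described here was not tested. Of 13 macrophage markers, 12 were tested, and their summed linear level was 1703 to 2531 on the WT arrays, 3849 and 3653 on those of *Btg1*-/- replicate 2 and 11572 and 11427 on those of *Btg1*-/- replicate 1. The labels call the replicates biological duplicates without naming the embryos or saying that a number marks 1 culture, and p-values measure only the spread between these arrays.

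The promoters of *Ldha* and *Slc2a1* are shown because *Ldha* was the only one of the 9 genes called in the response to starvation and *Slc2a1* the one closest to a call between the genotypes. Both are from RefSeq on GRCm38.p6, on the plus strand, and run from 250 bases before to 50 bases after the transcript start. *Ldha* lies at chr7:46845554-46845853 and *Slc2a1* at chr4:119108495-119108794. Capitals mark ACGTG and GCGTG, the core letters of the hypoxia response element, on either strand, where the reverse strand reads CACGT and CACGC.
Ldha: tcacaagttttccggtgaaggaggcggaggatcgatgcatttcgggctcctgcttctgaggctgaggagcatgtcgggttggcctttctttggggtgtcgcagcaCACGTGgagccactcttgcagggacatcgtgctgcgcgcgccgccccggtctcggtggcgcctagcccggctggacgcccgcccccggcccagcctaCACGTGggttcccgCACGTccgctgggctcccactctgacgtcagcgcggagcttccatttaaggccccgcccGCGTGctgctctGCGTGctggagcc
Slc2a1: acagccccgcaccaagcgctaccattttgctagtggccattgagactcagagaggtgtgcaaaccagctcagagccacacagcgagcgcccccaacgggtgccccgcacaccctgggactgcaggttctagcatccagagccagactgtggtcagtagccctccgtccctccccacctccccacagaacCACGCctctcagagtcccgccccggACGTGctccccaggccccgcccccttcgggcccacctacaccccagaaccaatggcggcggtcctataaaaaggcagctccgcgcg
The *Ldha* promoter shown, the first of 2 that RefSeq lists, held ACGTG 5 times and GCGTG 2 times, and the other held GCGTG 2 times and ACGTG 0 times. The 2 palindromic E-boxes, CACGTG, which read ACGTG on both strands, begin at positions -145 and -48 from the start. The *Slc2a1* promoter held 1 ACGTG at -36 and 1 GCGTG on the reverse strand at -61. Of the 16 promoters that RefSeq lists for the 9 measured genes, which overlap for some genes, 7 held ACGTG, 10 GCGTG and 1, that of *Ldha* shown, CACGTG. Of 32851 mouse promoters of this length, 19.6% held ACGTG, 32.4% GCGTG and 7.2% CACGTG, and for the 10281 promoters of tested rows the shares were 23.5%, 46.5% and 9.3%. A match describes the letters alone.

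The responses of the 9 genes in WT cells ran from -1.06 for *Aldoc*, whose arrays were the widest apart, to 0.23 for *Slc2a1*. Of these genes, 1 fell and 0 rose at an adjusted p under 0.05 from limma, against 24.7% of all tested rows called in either direction, 13.1% as higher and 11.6% as lower. At an unadjusted p under 0.05 it was again 1 of 9, against 35.5% of all rows. *Ldha*, which reduces pyruvate to lactate, was the gene that fell. It measured 13.45 and 13.60 on the untreated WT arrays and 13.26 and 12.98 on the starved ones. Both starved arrays lay below both untreated arrays, with the lower of the starved values in replicate 2. The log2 difference was -0.41 (standard error 0.12, adjusted p = 0.0309), a level 1.33-fold lower. This call depended on single arrays: the adjusted p was 0.0636 without untreated WT replicate 1 (-0.48), 0.175 without untreated WT replicate 2 (-0.33), 0.214 without starved WT replicate 2 (-0.26) and 0.493 without either array of WT replicate 2 (-0.19). It was 0.149 when the intensity trend was left out of the fit and 0.305 with the methods' t-test, by which 1 of all 12691 rows was called.

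Among the 9 genes, 0 were called in *Btg1*-/- cells, against 15.7% of all rows, 8.44% as higher and 7.24% as lower. At an unadjusted p under 0.05 there was 1 of 9, *Ldha*, against 29% of all rows. Its levels were 13.24 and 13.48 in untreated and 13.02 and 12.93 in starved *Btg1*-/- cells, and the groups did not overlap. The difference of -0.39 (standard error 0.12) was close in size to that in WT cells, with an adjusted p of 0.0544, and 0.0474 with the replicate number as a block, under which 19.6% of all rows were called. The response in *Btg1*-/- minus that in WT cells was 0.02 for *Ldha*, with a 95% interval of -0.35 to 0.39. A mean of the responses of both genotypes, a comparison added after the data were seen, gave -0.40 for *Ldha* (standard error 0.08, adjusted p = 0.00489), the only one of the 9 called there against 32.6% of all rows. Without WT replicate 2 this mean response was -0.29 with an adjusted p of 0.0747.

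**Figure D1:**
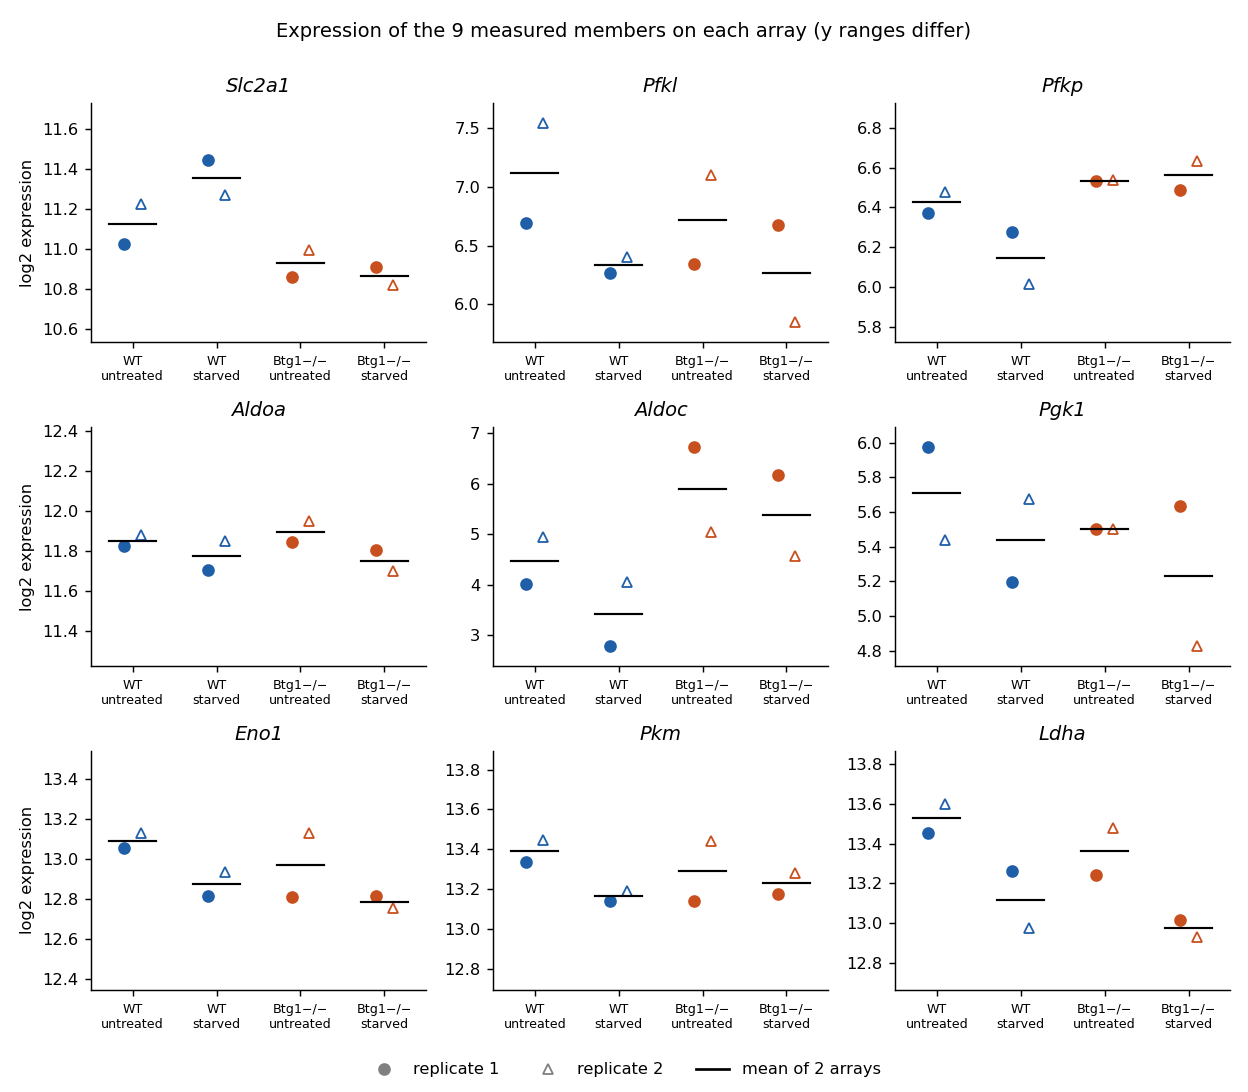
Log2 expression (y axes, with ranges that differ between panels) of the 9 measured genes in the 4 groups (x axes), with replicate 1 as filled circles, replicate 2 as open triangles and the mean of 2 arrays as a line. *Ldha* is lower on the starved arrays than on the untreated ones of the same genotype, and the 2 *Aldoc* values of a group lie up to 1.68 apart.

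The carrier showed another pattern. *Slc2a1* measured 11.02 and 11.23 in untreated WT cells and 11.45 and 11.27 in starved WT cells. The starved arrays lay above the untreated ones, by a mean of 0.23 (standard error 0.11, adjusted p = 0.158). The *Btg1*-/- values were 10.86 and 11.00 untreated and 10.91 and 10.82 starved. These ranges overlapped, with a difference of -0.06 (95% interval -0.31 to 0.18). The group means were therefore ordered as starved WT (11.36), untreated WT (11.13), untreated *Btg1*-/- (10.93) and starved *Btg1*-/- (10.87), and no neighbours in this order differed by the test. Between the ends of the order, starved *Btg1*-/- against starved WT cells, the difference was -0.49 (standard error 0.11), or 1.41-fold lower, with both *Btg1*-/- arrays below both WT arrays. Its adjusted p of 0.0522 missed the threshold, and with an array left out it ranged from 0.0445 without untreated *Btg1*-/- replicate 1 to 0.398 without starved WT replicate 1. The difference between the responses of the genotypes was -0.29 (95% interval -0.64 to 0.05, adjusted p = 0.822).

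Both phosphofructokinase subunits, which catalyse the committing step of glycolysis, lay near 6 to 7 on the log2 scale. *Pfkl*, the liver-type subunit, measured 6.69 and 7.54 in untreated and 6.27 and 6.41 in starved WT cells. The groups did not overlap, but the untreated arrays were 0.85 apart and the difference of -0.78 had a 95% interval of -1.61 to 0.05. *Btg1*-/- cells gave 6.34 and 7.10 untreated and 6.68 and 5.85 starved, with a difference of -0.46 (standard error 0.37). Here the starved replicate 1 lay above its untreated counterpart and the ranges crossed. *Pfkp*, the platelet-type subunit, measured 6.37 and 6.48 in untreated, 6.28 and 6.01 in starved WT cells, 6.53 and 6.54 in untreated and 6.49 and 6.63 in starved *Btg1*-/- cells. The *Btg1*-/- arrays were above all WT arrays, by 0.11 (standard error 0.20) without and 0.41 (standard error 0.20) with starvation, with adjusted p of 0.826 and 0.345.

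The aldolases, which split fructose 1,6-bisphosphate, differed in how closely they could be measured. *Aldoa*, the form of most tissues, varied by 0.25 over the 8 arrays, from 11.70 to 11.95. Its response was -0.08 in WT (95% interval -0.28 to 0.13) and -0.15 in *Btg1*-/- cells (95% interval -0.36 to 0.06). *Aldoc*, the form best known from brain, varied by 3.95, from 2.79 to 6.74. It measured 4.03 and 4.94 in untreated WT, 2.79 and 4.05 in starved WT, 6.74 and 5.05 in untreated *Btg1*-/- and 6.18 and 4.58 in starved *Btg1*-/- cells. In each condition both *Btg1*-/- arrays were above both WT arrays, with those of *Btg1*-/- replicate 1 the highest of all. Each starved array was below the untreated array of the same number, with differences of -1.24 and -0.89 in WT and -0.55 and -0.47 in *Btg1*-/- cells. The response was -1.06 in WT cells, a level 2.09-fold lower (standard error 0.70, adjusted p = 0.324), and -0.51 in *Btg1*-/- cells (95% interval -2.08 to 1.05). With the replicate number as a block the WT response was called (standard error 0.30, adjusted p = 0.0261), as were 28.6% of all rows. The level of *Aldoc* was 1.41 higher in *Btg1*-/- cells without starvation (adjusted p = 0.338) and 1.96 higher with it, a fold change of 3.89 (standard error 0.70, adjusted p = 0.193). Without *Btg1*-/- replicate 1 these differences were 0.57 and 1.16. The mean of the starved WT arrays was 3.42, and their replicate 1, at 2.79, lay below the background level of 3. Between starved cells *Aldoc* was the only one of the 9 genes past the methods' fold change of 3, against 1.24% of all rows. By that rule 0 of 9 genes passed for the WT response (4.31% of all rows), the *Btg1*-/- response (2.16%), untreated *Btg1*-/- against WT cells (1.39%) and the difference in response (1.32%).

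As a median, the macrophage markers were higher in *Btg1*-/- replicate 1 than in replicate 2, as *Aldoc* was, though not every marker was. Their median level was 8.08 and 7.63 in *Btg1*-/- replicate 1, 6.33 and 6.30 in replicate 2 and 4.86 to 5.45 in WT cells, and 10 of the 12 stood at 3 or more on each *Btg1*-/- array and 10 to 12 on the WT arrays. *Fcgr3*, an Fc receptor of myeloid cells, measured 9.35 and 8.89 in *Btg1*-/- replicate 1 and 3.33 to 4.70 in WT cells, while *Fcer1g*, a partner of such receptors, measured 2.35 and 2.13 in *Btg1*-/- replicate 1 and 7.26 to 7.69 elsewhere. *Itgam* measured 2.94 and 2.97 in untreated *Btg1*-/- replicates 1 and 2, and *Ptprc*, the marker not tested, lay below 3 on every array. The difference between untreated *Btg1*-/- and WT cells had a median of 2.00 over the 12 markers, with 10 above 0. Limma called 0 of them, and 9 passed an unadjusted p under 0.05, against 17.3% of all rows. Between starved cells the median was 1.56, with 9 above 0, 0 called and 7 at an unadjusted p under 0.05, against 16.8%. *Hk3*, the hexokinase best known from blood cells, measured 6.52 and 6.10 in *Btg1*-/- replicate 1, 4.19 and 5.02 in replicate 2 and 2.86 to 4.78 in WT cells. The part of these cells in the values of *Aldoc* and *Hk3* was not tested.

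**Figure D2:**
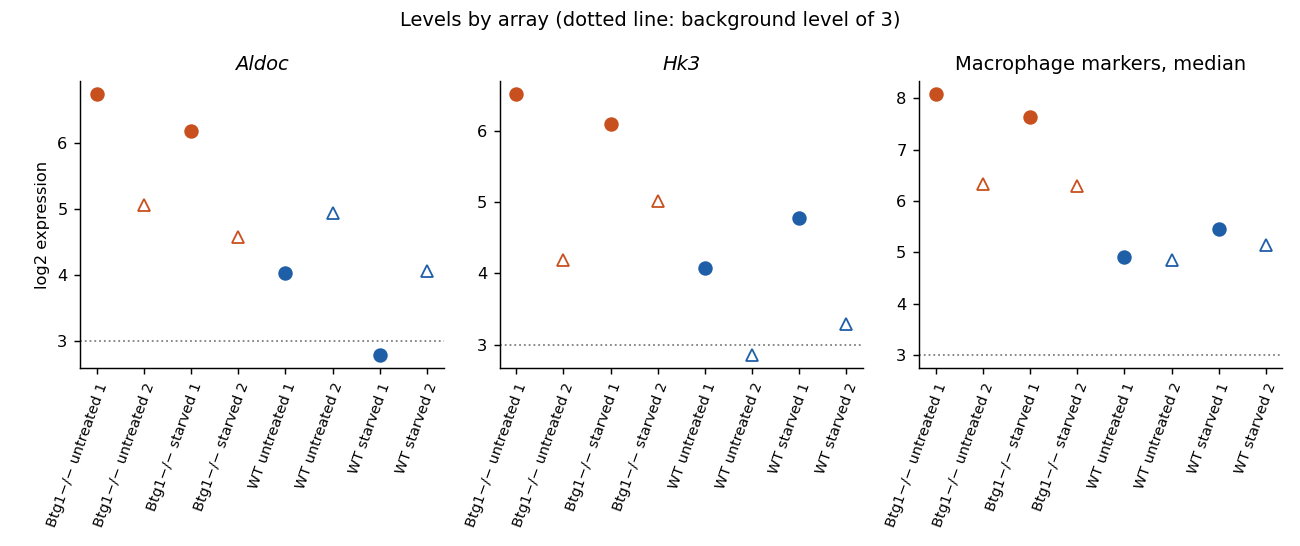
Log2 levels (y axes) of *Aldoc*, *Hk3* and the median of 12 macrophage markers on each array (x axes), with *Btg1*-/- arrays in orange, WT arrays in blue, replicate 1 as circles, replicate 2 as triangles and the background level of 3 as a dotted line. The arrays of *Btg1*-/- replicate 1 are the highest in all 3 panels.

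The enzymes below the aldolase step had little room between their replicates and their groups. *Pgk1*, which makes the first ATP of the pathway and is X-linked, measured 5.98 and 5.44 in untreated WT, 5.20 and 5.68 in starved WT, 5.50 and 5.50 in untreated *Btg1*-/- and 5.63 and 4.83 in starved *Btg1*-/- cells. The ranges crossed in both genotypes, and the response was -0.27 in each (standard error 0.34). *Eno1*, the ubiquitous enolase, measured 13.05 and 13.13 in untreated and 12.81 and 12.93 in starved WT cells. These groups did not overlap, and the difference of -0.22 (standard error 0.11) had an adjusted p of 0.19. Its response in *Btg1*-/- cells was -0.18 (standard error 0.11), with untreated replicate 1, at 12.81, level with the starved arrays at 12.82 and 12.75. *Pkm*, pyruvate kinase of muscle and proliferating cells, measured 13.34 and 13.45 in untreated and 13.14 and 13.19 in starved WT cells. The difference of -0.23 (standard error 0.11, adjusted p = 0.159) compares with -0.06 (95% interval -0.30 to 0.18) in *Btg1*-/- cells. The M1 and M2 isoforms of *Pkm* were not resolved, and probe sequences were not used here, so signal of near-identical copies, such as *Eno1b* for *Eno1*, is not separated.

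Direction was shared more widely than the calls. The difference was below 0 for 8 of the 9 genes in WT cells, all but *Slc2a1*, and for 8 of the 9 in *Btg1*-/- cells, all but *Pfkp*, against 47.6% and 47.9% of all tested rows. The median over the 9 genes was -0.27 in WT and -0.18 in *Btg1*-/- cells, and over all rows 0.03 in both. In WT cells the arrays did not overlap for 5 genes lower after starvation (*Pfkp*, *Pfkl*, *Eno1*, *Pkm* and *Ldha*) and for 1 higher (*Slc2a1*), while 29.6% and 33.4% of all rows did so. For *Btg1*-/- cells there were 2 such genes lower (*Aldoa* and *Ldha*) and 0 higher, with 25.5% and 29.6% over all rows. Genes on the same array are not independent, and no test was made over the 9 genes together.

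**Figure D3:**
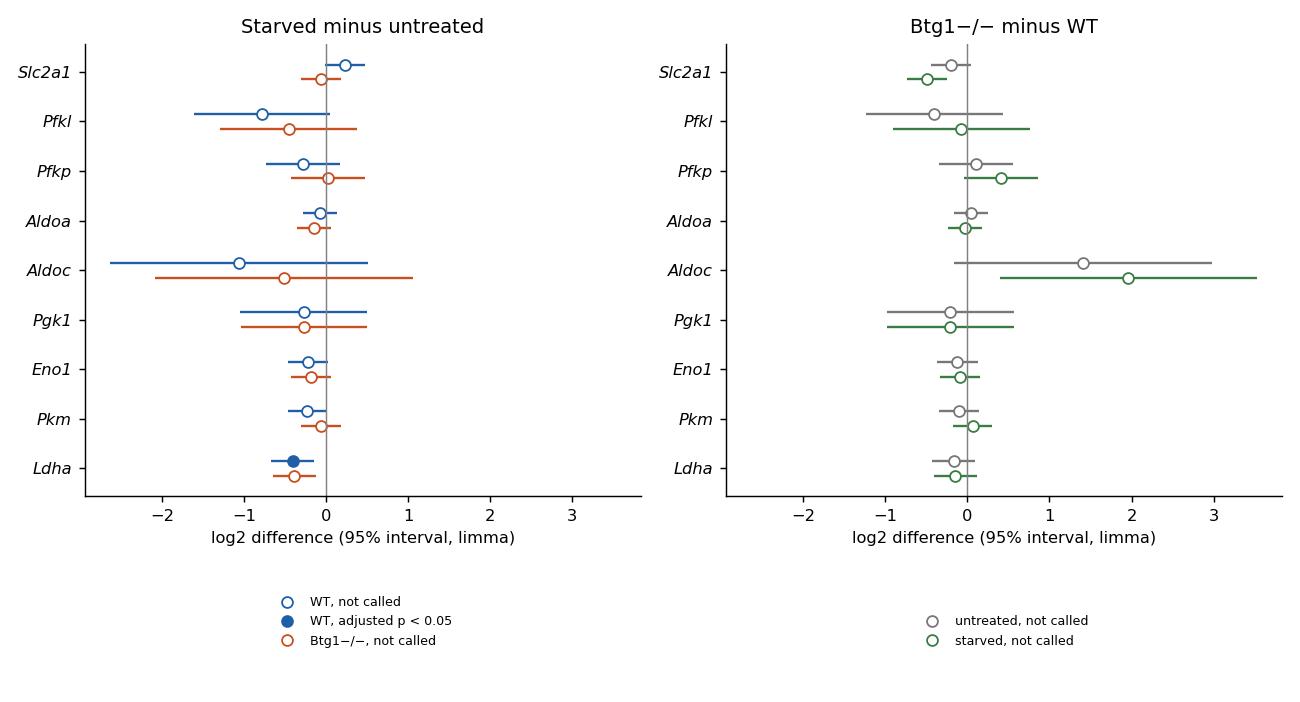
Log2 differences (x axes) with 95% intervals from limma for the 9 genes (y axes), starved minus untreated on the left and *Btg1*-/- minus WT on the right, filled where the adjusted p was under 0.05. Only the point for *Ldha* in WT cells, at -0.41, is filled.

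Loss of *Btg1* had no call among the 9 genes in either condition. Without starvation 0 of 9 were called, against 0.662% of all rows, and 0 of 9 passed an unadjusted p under 0.05, against 17.3%. With starvation 0 of 9 were called, against 2.25%, and 2 of 9, *Slc2a1* and *Aldoc*, passed an unadjusted p under 0.05, against 16.8%. In both conditions the arrays of the genotypes did not overlap for 2 genes higher in *Btg1*-/- cells, *Pfkp* and *Aldoc*, and for 1 lower, *Slc2a1*. Over all rows such shares were 22.6% higher and 25.3% lower without starvation and 22.1% and 27.3% with it. For the enzymes measured most closely the intervals were narrow. Between starved cells of the 2 genotypes, *Aldoa* differed by -0.02 (95% interval -0.23 to 0.18), *Eno1* by -0.09 (-0.34 to 0.16), *Pkm* by 0.06 (-0.18 to 0.30) and *Ldha* by -0.14 (-0.41 to 0.12). The response itself differed between the genotypes for 0 of 9 genes by adjusted p and for 0 of 9 at an unadjusted p under 0.05, with 0 of the 12691 rows called and 6.42% at the unadjusted level. The differences in response ran from -0.29 for *Slc2a1* to 0.55 for *Aldoc*, whose 95% interval ran from -1.67 to 2.77.

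Among 13 other tested glycolysis enzymes, the calls fell on other steps and on other forms of the same enzymes. In WT cells 1 was called as higher and 3 as lower, and in *Btg1*-/- cells 1 as higher and 2 as lower, with medians of -0.39 and -0.18. The called shares were 30.8% and 23.1%, beside 24.7% and 15.7% of all rows. The largest responses were those of the other enolases. *Eno2*, the neuronal form, rose from 7.64 and 7.11 to 9.30 and 8.94 in WT cells, by 1.74 (standard error 0.23, adjusted p = 0.000535), and in *Btg1*-/- cells from 7.94 and 7.45 to 8.86 and 8.63, with a difference of 1.06 (standard error 0.23, adjusted p = 0.0131). The starved arrays were above the untreated ones in both genotypes, and the difference in response of -0.68 (95% interval -1.40 to 0.04) was not called. The *Btg1*-/- call was lost without untreated replicate 2 (0.81, adjusted p = 0.0678), without starved replicate 1 (0.94, adjusted p = 0.0909), without both arrays of *Btg1*-/- replicate 1 (1.19, adjusted p = 0.0595) and without the intensity trend (adjusted p = 0.0708). *Eno3*, the muscle form, fell from 8.44 and 8.68 to 6.38 and 6.84 in WT cells and from 8.83 and 9.35 to 6.97 and 7.50 in *Btg1*-/- cells. Its differences of -1.95 and -1.86 (standard error 0.25 each, adjusted p = 0.00044 and 0.0013) held in both genotypes without any single array. Of 7 tested muscle markers, 2 were called as lower in each genotype (28.6%), *Acta1* and *Des*, beside 11.6% and 7.24% of all rows. The summed linear level of the 7 was 1293 and 1589 in untreated and 419 and 527 in starved WT cells, and 2982 and 4222 in untreated and 1208 and 1802 in starved *Btg1*-/- cells. This sum rests mostly on *Acta1* and *Des*. The median response of the 7 markers was -0.65 in WT and -0.28 in *Btg1*-/- cells, with 0 and 2 of them above 0. The part of muscle cells in the *Eno3* values was not tested. *Eno1* thus stood between a form that rose and a form that fell.

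*Tpi1*, triosephosphate isomerase, fell from 12.14 and 11.91 to 11.12 and 11.38 in WT cells, by 0.78 on the log2 scale (standard error 0.13, adjusted p = 0.0017). The *Btg1*-/- values went from 11.68 and 11.94 to 11.28 and 11.36, a difference of -0.49 (standard error 0.13, adjusted p = 0.0279). The latter call was lost without untreated *Btg1*-/- replicate 2 (-0.36, adjusted p = 0.139), starved replicate 1 (-0.45, adjusted p = 0.136), starved replicate 2 (-0.53, adjusted p = 0.0885) or both arrays of replicate 1 (-0.58, adjusted p = 0.0947), and without the intensity trend (adjusted p = 0.139). *Pgam1*, phosphoglycerate mutase, fell in WT cells from 10.23 and 10.41 to 9.87 and 9.86, by 0.46 (standard error 0.11, adjusted p = 0.0133). This call was lost without untreated WT replicate 2 (-0.37, adjusted p = 0.103), starved WT replicate 1 (-0.46, adjusted p = 0.0667), starved WT replicate 2 (-0.45, adjusted p = 0.0695) or both arrays of WT replicate 2 (-0.36, adjusted p = 0.246), and without the intensity trend (adjusted p = 0.0797). In *Btg1*-/- cells *Pgam1* differed by -0.09 (95% interval -0.33 to 0.16), and its difference in response, 0.37, was not called (adjusted p = 0.766). *Gapdh*, often used as a reference gene, differed by -0.19 and -0.18 (standard error 0.08 each, adjusted p = 0.123 and 0.194), with the starved arrays below the untreated ones in both genotypes. *Hk1*, the ubiquitous hexokinase, differed by -0.49 in each genotype (standard error 0.22, adjusted p = 0.139 and 0.166), and *Pfkm*, the muscle-type phosphofructokinase, by -0.39 and -0.26 (standard error 0.19, adjusted p = 0.182 and 0.418).

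**Figure D4:**
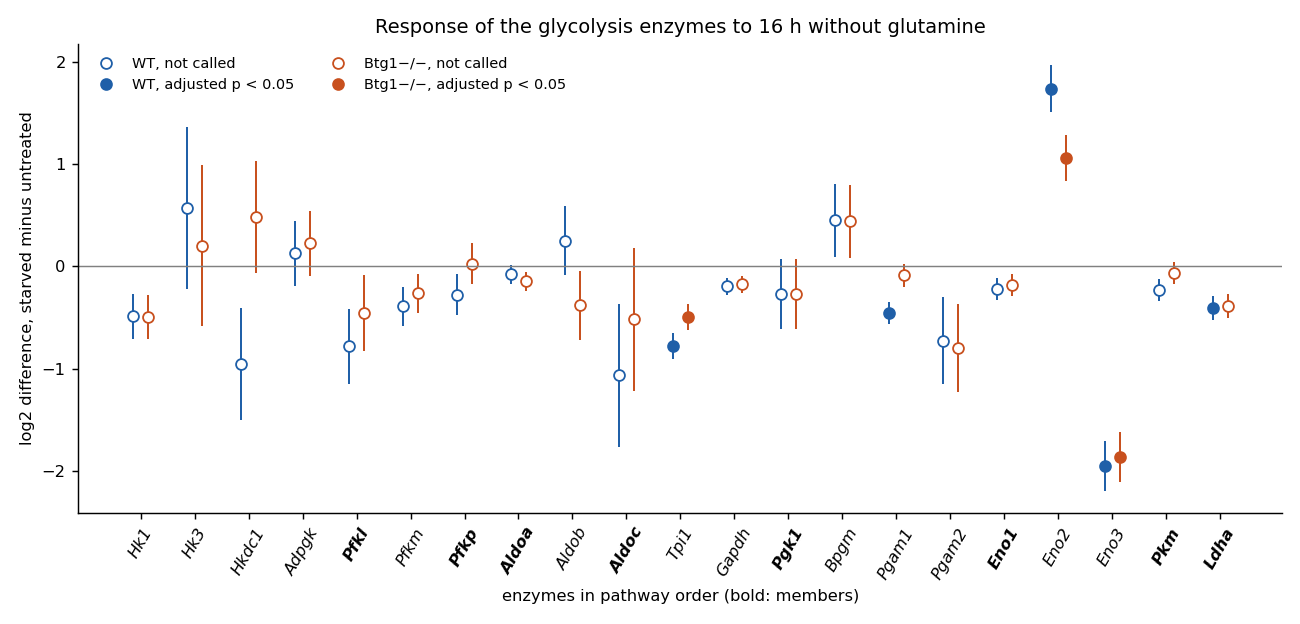
Log2 difference, starved minus untreated (y axis, points with bars of 1 standard error from limma), of the tested glycolysis enzymes in pathway order (x axis, the genes described here in bold) in WT (blue) and *Btg1*-/- cells (orange), filled where the adjusted p was under 0.05. *Eno2*, at 1.74 and 1.06, and *Eno3*, at -1.95 and -1.86, stand farthest from 0, and *Ldha* is filled in WT cells only.

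Of 9 other tested glucose carriers 0 were called in either genotype, against 24.7% of all rows in WT and 15.7% in *Btg1*-/- cells. At an unadjusted p under 0.05 there was 1 in WT and 2 in *Btg1*-/- cells, against 35.5% and 29%. In the mean response of both genotypes, 1 carrier was called as higher and 1 as lower (22.2%), against 32.6% of all rows. *Slc2a10*, a carrier of the same family as *Slc2a1*, differed by -0.63 in WT and -0.62 in *Btg1*-/- cells (standard error 0.21 each), with adjusted p of 0.0546 and 0.0775. *Slc2a3*, the high-affinity carrier GLUT3, chosen here after its values were seen, measured 7.57 and 7.93 in untreated and 8.03 and 8.21 in starved WT cells, and 7.24 and 7.30 in untreated and 8.02 and 7.67 in starved *Btg1*-/- cells. Its starved arrays were above the untreated ones in both genotypes, by 0.37 and 0.58 (standard error 0.18 each, adjusted p = 0.181 and 0.0634, and 0.115 and 0.0315 with a replicate block). Of 4 tested enzymes that set the level of fructose 2,6-bisphosphate, the activator of phosphofructokinase, 1 was called as lower in WT (25%). In *Btg1*-/- cells 0 were called. The shares of all rows called were 24.7% and 15.7%. *Pfkfb4* measured 8.35 and 7.98 in untreated and 6.97 and 7.46 in starved WT cells, a difference of -0.95 (standard error 0.21, adjusted p = 0.00992), with adjusted p of 0.0851 without untreated WT replicate 1 (-0.76) and 0.0896 without starved WT replicate 1 (-0.70). The *Btg1*-/- response was -0.45 (adjusted p = 0.197).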

How the data were processed

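The authors extracted the bead array data through a service laboratory (GenomeStudio 2011.1 in the submitters' processing notes), normalized them by RMA in ArrayStar and deposited 1 log2 value per named row and array. A second deposited table held their group means, within 5e-06 of the means computed here for 18109 shared rows, and their fold ratios, which were not used. Bead counts, detection p-values and probe sequences were not used, and no source used here states the genome build of the probes. Rows were named through a RefSeq gene table (GRCm38.p6).

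The 12691 rows that reached a mean of 3 in any group entered 1 model of the 4 groups over all 8 arrays (limma 3.58.1, R 4.3.3). The variance was moderated along the mean level (eBayes, trend), with 4 degrees of freedom from the residuals and 5.48 from the prior. Two-sided p-values were adjusted over these rows (Benjamini-Hochberg). The method was also run on simulated arrays, drawn independently of each other and without a culture shared by a replicate number. That run cannot show how far the p-values hold for arrays that share a culture. Figures were drawn with matplotlib 3.10.9.

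Earlier results of these data were known when the genes, the lists and the naming rule were chosen. All of the 10 genes are named, and of each other list up to 4 genes, called ones first, by the size of their mean response, with paralogs and *Btg1* in addition. Alternatives were other filters, scalings, samples in the fit, thresholds and tests (the methods name a t-test for other data), a block on the replicate number within a genotype, each array left out, and both arrays of WT replicate 2 or of *Btg1*-/- replicate 1 left out. A planned comparison of protein sequences was not run. Deviations of same-numbered arrays from their group means correlated across rows, with r of 0.118 among WT arrays, 0.243 among *Btg1*-/- arrays and 0.024 to 0.105 between genotypes. The level of *Eif2s3y* also went with the number among WT arrays, and that of *Fcer1g* among *Btg1*-/- arrays. This is a hint from the data that the number marks a culture, which the labels do not state, so the block stayed an alternative and is given where it changed a call.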

Additional observations from a re-analysis of the deposited data

How the results depend on the processing

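The number of called genes among the 9 depended on the settings. For starved against untreated WT cells it was 1, and 0 without the intensity trend, with the methods' t-test or with a fold change of 3, 2 with a replicate block (*Ldha*, adjusted p = 0.0279, and *Aldoc*, 0.0261) and 0 to 1 with an array left out. In *Btg1*-/- cells it was 0, and 1 (*Ldha*) with a filter at 5, with quantile normalization, with a replicate block or at an adjusted p under 0.1, and 0 to 1 with an array left out. Between starved *Btg1*-/- and WT cells it was 0, and 1 with the filter at 5, with quantile normalization, at an adjusted p under 0.1 (*Slc2a1* in each) or with a fold change of 3 (*Aldoc*), and 0 to 1 with an array left out. For the mean response of both genotypes it was 1, and 0 without the trend, with the t-test or with a fold change of 3, 2 with a replicate block or at an adjusted p under 0.1, and 0 to 4 with an array left out. No alternative called any of the 9 genes between untreated genotypes or in the difference in response. Under the replicate block 28.6% and 19.6% of all rows were called in the WT and *Btg1*-/- responses, and besides *Ldha* and *Aldoc* it changed the call of *Slc2a3* in *Btg1*-/- cells, from an adjusted p of 0.0634 to 0.0315, and of no other named gene. By the methods' t-test 0 of the 36 responses of named genes called by limma were called (adjusted p of 0.0911 to 0.423).

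Directions turned only for values near 0 or of wide spread. Quantile normalization gave -0.0092 for the *Ldha* difference in response. Some ranges over all alternatives, which include fits without 1 array or without both arrays of a replicate, crossed 0. For the *Btg1*-/- response these ranges were -1.36 to 0.33 (*Aldoc*), -0.96 to 1.37 (*Hk3*), -0.0479 to 0.0995 (*Pfkp*), -0.209 to 0.0189 (*Pgam1*), -0.166 to 0.018 (*Pgd*), -0.67 to 0.13 (*Pgk1*), -0.211 to 0.086 (*Pkm*), -0.176 to 0.0065 (*Slc2a1*) and -0.0051 to 0.569 (*Txnip*), and for the WT response -0.17 to 1.31 (*Hk3*). For the difference in response they were -0.175 to 0.0039 (*Aldoa*), -0.29 to 1.39 (*Aldoc*), -0.16 to 0.20 (*Eno1*), -0.19 to 0.16 (*Ldha*), -0.47 to 0.75 (*Pfkl*) and -0.40 to 0.51 (*Pgk1*). Between untreated genotypes they were -0.0059 to 0.0963 (*Aldoa*), -0.285 to 0.0385 (*Eno1*), -0.827 to 0.0255 (*Pfkl*), -0.476 to 0.0603 (*Pgk1*) and -0.25 to 0.0468 (*Pkm*), and between starved ones -0.098 to 0.0491 (*Aldoa*), -0.49 to 0.34 (*Pfkl*) and -0.61 to 0.20 (*Pgk1*). The number of arrays limits the precision, with 2 in each group, and a group left with 1 array was assumed to vary like the others.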

Other observations

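Of 16 tested genes of the TCA cycle, 0 were called as higher and 4 as lower in WT cells after glutamine starvation. In *Btg1*-/- cells 0 were called as higher and 3 as lower. These were 25% and 18.8% of the list, beside 24.7% and 15.7% of all rows called. The calls of *Cs* and *Idh3a* in *Btg1*-/- cells and of *Mdh2* in WT cells were lost in most alternatives. Their differences there ran from -0.69 to -0.31, -0.67 to -0.37 and -0.47 to -0.32. *Idh2*, the mitochondrial NADP-dependent isocitrate dehydrogenase, measured 11.56 and 11.24 in untreated and 9.58 and 9.87 in starved WT cells, and 10.97 and 10.98 in untreated and 9.63 and 9.89 in starved *Btg1*-/- cells. Its differences of -1.68 and -1.22 (standard error 0.14 each, adjusted p = 6.27e-05 and 0.000884 from limma) were far larger than those of *Ldha*, and both calls held without any single array. *Pdhb*, a subunit of the pyruvate dehydrogenase that links glycolysis to this cycle, rose instead, by 1.02 in WT and 0.76 in *Btg1*-/- cells (standard error 0.12 each, adjusted p = 0.000232 and 0.00235). It was the only one of 15 tested genes of lactate and pyruvate handling called in either genotype.

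Of 11 tested genes of gluconeogenesis and glycogen, limma called 2 as lower in WT (18.2%) and 1 as lower in *Btg1*-/- cells (9.09%). *Pygb*, the brain form of glycogen phosphorylase, measured 9.73 and 9.70 in untreated and 7.73 and 8.14 in starved WT cells, and fell by 1.78 in WT and 1.44 in *Btg1*-/- cells (standard error 0.18 each, adjusted p = 0.000131 and 0.001). Of 10 tested genes of the pentose phosphate pathway, 2 were called as higher and 1 as lower in WT and 1 as higher in *Btg1*-/- cells (30% and 10%). A further list held HIF targets other than the glycolysis enzymes, among them *Pfkfb4* described above, and the HIF subunit genes *Hif1a*, *Epas1* and *Arnt*. Of its 19 tested genes, 4 were called as higher and 5 as lower in WT cells (47.4%). In *Btg1*-/- cells 2 were called as higher and 2 as lower (21.1%). The shares of all rows called as higher and lower were 13.1% and 11.6% for WT cells, 8.44% and 7.24% for *Btg1*-/- ones. *Ndrg1*, a stress-induced gene, rose by 2.72 and 2.16 (standard error 0.27 each, adjusted p = 0.000134 and 0.00108), while *Adm*, the vasodilator adrenomedullin, fell by 1.66 in WT cells (standard error 0.28, adjusted p = 0.00216). In *Btg1*-/- cells *Adm* was lower as well, at 8.62 and 9.33 untreated and 7.33 and 7.82 starved, a difference of -1.40. Both directions thus occurred in the list, as they did among the enolases. The difference in response between the genotypes was called for 0 genes of these lists, and for 0 of all 12691 rows, so this count says nothing particular about them.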
